A study of Rattus with 9 samples.

Results

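Natural killer (NK) cells of the rat extrahepatic bile duct were taken from droplet-based single-cell RNA sequencing of 9 samples with 20 libraries. A barcode counted as a cell where it held more than 400 but under 6000 genes, under 25% mitochondrial and under 3% hemoglobin UMIs. A UMI (unique molecular identifier) marks a captured RNA molecule. NK cells were those with at least 1 UMI of Nkg7, UMIs of at least 2 of the 5 cytotoxic lymphocyte genes Klrd1, Prf1, Gzmm, Klrb1b and Gzma, and no UMI of Cd3d, Cd3e, Cd3g, Cd79b, Csf1r or Epcam. This rule found 3472 of 150379 cells. Their 6 positive genes and 6 excluding genes chose the cells and were not tested.

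The sham group consisted of 3 rat samples without transplantation, with 1 library each. The transplant group was a rat liver transplantation (LT) model with ischemic injury, with 1 sample at each of days 1, 3 and 7 after LT. The raised-flow group had the same LT and ischemic injury and in addition ligated splenic and gastroduodenal arteries, which elevates hepatic arterial flow, again with 1 sample at each of days 1, 3 and 7. Grafts had 3 libraries per sample except raised flow at day 3, where 2 were analysed. Libraries were summed by sample, since no source used here ties them to individual rats. The labels name no genetic alteration in any group. The study's methods describe young Sprague-Dawley rats, and the labels give neither the strain and age of each sample nor the time at which sham rats were sampled. Nothing in the labels says whether a cell came from the donor or the recipient, so resident NK cells of the graft and NK cells that entered it cannot be told apart.

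NK cells are innate lymphocytes that lack the T cell receptor and its CD3 chains. They kill stressed or foreign cells with perforin and granzymes and release cytokines such as interferon gamma. Activating receptors (Klrk1, Ncr1, Ncr3) signal through adaptor proteins, whereas many inhibitory receptors of the Klr and Ly49 families recognise MHC class I on healthy cells. The liver holds circulating NK cells next to tissue-resident innate lymphocytes that express part of the NK gene program.

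The NK cells had a median of 1991.5 to 4932 UMIs per cell in the 9 samples, and their summed UMIs ranged from 85484 in sham 1 to 6583169 in transplant at day 7. The precision of the sham values is therefore limited by 25, 78 and 132 cells. Genes of other cell types were also found in the NK cells. UMIs of 4 fibroblast genes made up 58.5 to 12959 counts per 1000000 UMIs (CPM) in sham, 15.7 to 785 CPM in transplant and 216 to 4233 CPM in raised flow. Those of 6 neutrophil genes made up 13.9 to 3626, 931 to 4093 and 30.4 to 1775 CPM, and those of 5 biliary genes 157 to 631, 40.5 to 209 and 35.2 to 104 CPM. In all, 181 NK cells (5.21%) held 10 or more UMIs of 16 genes of other types, with 1.85% to 15.6% by sample. RNA free in the droplets was estimated to give 1.13% to 34.8% of the NK UMIs of a library, highest in transplant at day 7 library 1. The part of such cells and of free RNA in the differences below was not tested, but the share of a gene's UMIs that free RNA could give is stated for the genes it most concerns. Among 190 pairs of libraries, no pair shared more than 1 NK barcode.

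The label was checked against markers that the rule did not use. Tyrobp, an adaptor of activating receptors, was at 4070 CPM over all NK cells, Fcer1g at 1575 CPM, and Ncr1 (NKp46), a receptor largely restricted to NK cells, at 80.1 CPM. In the CD3-positive cytotoxic lymphocytes, which share the cytotoxic genes but hold CD3, these were at 302, 129 and 2.46 CPM. Of the 14 such markers found, 10 were higher in NK cells, and Cd7 (173 against 318 CPM), Ctsw (704 against 903 CPM), Hcst (974 against 1171 CPM) and Gzmb (4.05 against 5.27 CPM) were lower. Of the T cell genes, Cd8b was at 2.02 against 244 CPM and Themis at 0.698 against 12.3 CPM. Cd4 (0.279 against 3.14 CPM) and Cd5 (0.838 against 3.85 CPM) were low in both kinds, and Lef1 (40.3 against 48.8 CPM), Cd6 (17.6 against 53.9 CPM), Bcl11b (15.3 against 59.7 CPM) and Cd28 (10.6 against 45.4 CPM) were found in NK cells too. Cd8a was found at 267 CPM, and the T cell markers together (10 of 14 found in the files, Cd8a and Cd27 among them) summed to 204 to 328 CPM in sham, 483 to 541 CPM in transplant and 344 to 670 CPM in raised flow. Those not found were the constant genes of the T cell receptor (Trac, Trbc1, Trbc2 and Trdc). The absence of the T cell receptor could therefore not be checked by them. B cell genes (4 of 4 detected) summed to 4.54 CPM. At the edge of the rule, 428 cells had exactly 2 of the 5 cytotoxic genes and held Tyrobp at 2683 CPM and Ncr1 at 60.7 CPM, and 3044 cells with at least 3 held them at 4206 and 82.0 CPM. Just outside it, 322 cells with only 1 of the 5 held Tyrobp at 2267 CPM, Ncr1 at 17.1 CPM and Cd8b at 21.6 CPM. The 245 cells with 1 CD3 UMI held Tyrobp at 3118 CPM and Cd8b at 24.5 CPM. Cells with at least 2 CD3 UMIs (5394 cells) held Tyrobp at 214 CPM and Cd8b at 250 CPM.

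The genes of the rule varied between samples. Nkg7, a granule protein, was at 2060, 1860 and 1939 CPM in sham 1, 2 and 3. It was at 3589, 2964 and 4965 CPM in transplant and at 2420, 4521 and 4339 CPM in raised flow at days 1, 3 and 7. Gzma (granzyme A) was at 1234, 490 and 681 CPM in sham. It reached 2828, 2319 and 4057 CPM in transplant and 2077, 2750 and 5986 CPM in raised flow. All 6 grafts were thus above all 3 sham samples for these genes, and the same held for Prf1 (perforin), at 283 to 397 CPM in sham and 552 to 1809 CPM in grafts. Klrb1b, an inhibitory lectin-like receptor, overlapped between sham (633 to 795 CPM) and grafts (576 to 995 CPM). So did Gzmm (1701 to 2081 and 1892 to 3639 CPM) and Klrd1 (341 to 742 and 402 to 777 CPM). Of all genes tested, 6.88% were higher in grafts without overlap. These values are descriptions, since the genes chose the cells.

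To find out which genes set NK cells apart from the most similar cells of the tissue, they were compared with 5639 CD3-positive cytotoxic lymphocytes, which passed the same limits and cytotoxic genes but held a UMI of Cd3d, Cd3e or Cd3g. Genes that accompany CD3 in T cells are tied to this definition. In the 7 samples with at least 20 cells of each kind, Ncr1 was at 97.4 ± 27.9 CPM in NK cells and 2.45 ± 2.67 CPM in the CD3-positive cells (SD, n = 7), a log2 difference of 5.14 ± 0.31 (SE). Syk, a kinase downstream of activating receptors, was higher by 3.54 ± 0.25, Klri1 and Klri2, lectin-like receptors, by 3.84 ± 0.51 and 3.69 ± 0.31, and Klrc2 (NKG2C) by 2.01 ± 0.15 on the log2 scale. Irf8, a transcription factor of NK maturation, was at 181 ± 55.5 against 39.6 ± 16.6 CPM, and Rora at 117 ± 51.6 against 21.8 ± 12.7 CPM. Cd244 (2B4) was higher by 2.91, with overlapping levels, and Itgam (CD11b) by 3.02. Conversely, Pdcd1 (PD-1) was at 0.590 ± 1.35 against 37.1 ± 20.7 CPM, Havcr2 (TIM-3) at 2.25 ± 3.33 against 43.0 ± 20.8 CPM, and Lag3 at 180 ± 181 against 797 ± 739 CPM. Cd8b, Themis, S1pr1, Areg and Batf were also lower in NK cells, with log2 differences of -6.81, -4.01, -1.82, -2.85 and -1.67. All these genes had adjusted p of 0.0028 or less (edgeR quasi-likelihood test with Benjamini-Hochberg adjustment).

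**Figure D1:**
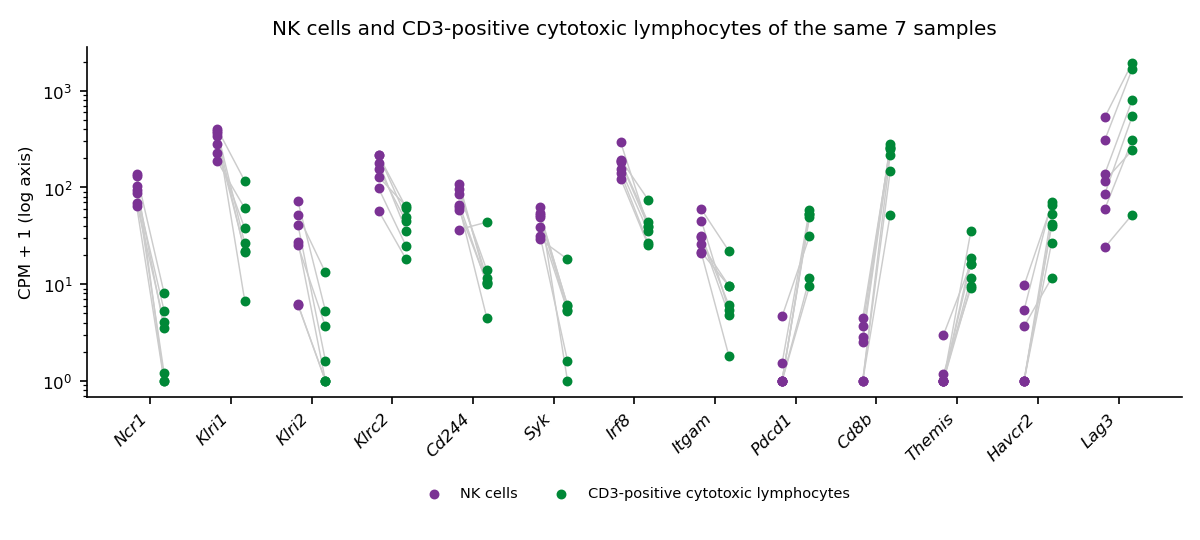
Each point is the level of a gene in the summed UMIs of 1 sample, as CPM plus 1 on a log axis, in NK cells (left of each pair) and in CD3-positive cytotoxic lymphocytes (right), joined by sample for 7 samples. Ncr1 lies at 97.4 CPM on average in NK cells against 2.45 CPM, whereas Cd8b lies at 1.35 against 208 CPM.

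Of 8826 genes tested in this comparison, 1781 (20.2%) were called at an adjusted p below 0.05, 986 higher (11.2%) and 795 lower (9.01%) in NK cells. Leaving out raised flow at day 7 lowered the count to 1050. Without TMM scaling the split was 796 higher and 1002 lower. Among activating receptors and adaptors, 9 of 23 tested genes were higher and 3 lower, and among inhibitory and other NK receptors 10 of 18 were higher and 4 lower. Transcription factors had 13 of 27 higher and 5 lower, including higher Nr4a2 (1.14 ± 0.12). Interferon-stimulated genes had 12 of 32 higher and none lower, such as Oasl (2.30 ± 0.28) and Usp18 (1.87 ± 0.26). Of immediate early and dissociation genes, 9 of 29 were higher and none lower, and of the Crem and cAMP-responsive genes 7 of 18 were higher and 2 lower, with Crem itself at 955 ± 308 against 547 ± 207 CPM. In contrast, 10 of 29 cell cycle genes were lower and none higher, Cdk1 with a log2 difference of -0.82 ± 0.17. Cytotoxic granule genes had 3 of 16 higher and none lower, beside 11.2% and 9.01% of all genes tested, among them Gzmk at 2117.5 ± 1206 against 562 ± 201 CPM. The list medians were 0.32 and 1.10 for activating and inhibitory receptors, 0.59 for interferon-stimulated genes and -0.37 for the cell cycle, beside 0.02 over all genes.

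The abundance of NK cells was compared next. NK cells made up 1.02% (95% exact Clopper-Pearson interval 0.660% to 1.5%), 0.782% (0.619% to 0.975%) and 1.10% (0.923% to 1.31%) of all cells in sham 1, 2 and 3. In transplant, they made up 0.863% (0.715% to 1.03%) at day 1, 0.552% (0.403% to 0.738%) at day 3 and 4.84% (4.62% to 5.07%) at day 7. In raised flow, the shares were 1.23% (1.09% to 1.37%), 0.611% (0.501% to 0.737%) and 3.63% (3.42% to 3.86%). The intervals cover counting error only. Both day 7 samples were thus higher than all other samples, 5.61 times day 1 in transplant and 2.97 times in raised flow. By library, the 6 day 7 libraries ranged from 1.39% to 6.91% and the 11 libraries of days 1 and 3 from 0.378% to 1.61%, and 5 of the 6 were above every other library. With 2 samples per day, no exact permutation test of days 1 and 7 can go below p = 0.333.

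**Figure D2:**
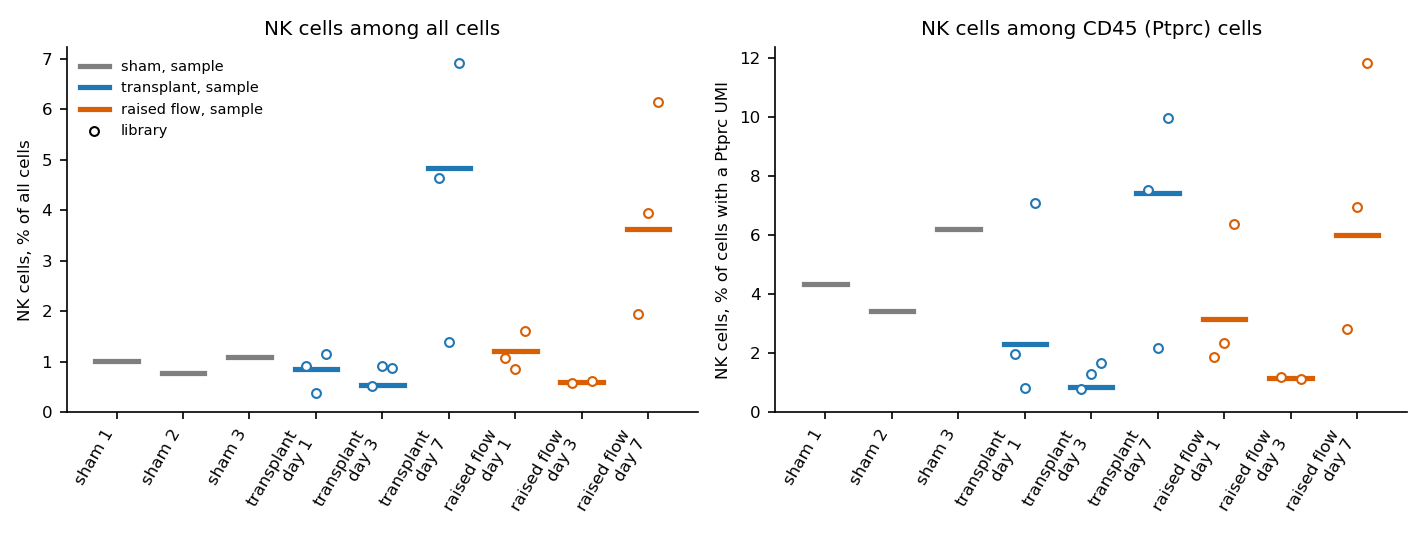
Bars give the share of NK cells in each sample and open circles the share in each library of the grafts, in percent of all cells (left) and of cells with a UMI of Ptprc (CD45, right). The day 7 samples, at 4.84% and 3.63% of all cells, lie above the other 7 samples, while on the right the sham samples (3.44% to 6.21%) lie in the range of the grafts.

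Over the 6 grafts the share was 1.95% ± 1.82 (SD, n = 6) against 0.967% ± 0.166 in sham (n = 3), which did not pass a two-sided exact permutation test (difference 0.987 percentage points, p = 0.667; smallest possible p = 0.0238). Among cells with a UMI of Ptprc (CD45, a leukocyte gene), NK cells made up 4.36%, 3.44% and 6.21% in sham, 2.32%, 0.848% and 7.43% in transplant and 3.18%, 1.16% and 6.02% in raised flow at days 1, 3 and 7. NK cells without a Ptprc UMI are left out of these shares. A Ptprc UMI was found in 60 of 78 NK cells of sham 2 and in 41 of 45 of transplant at day 3. The difference between grafts and sham was then -1.18 percentage points (exact permutation p = 0.524). Both day 3 grafts had the lowest shares by either denominator. At day 3 of transplant, the hemoglobin limit removed 6548 barcodes and left 437 and 337 cells in 2 of its 3 libraries. Raised flow and transplant differed by -0.262 percentage points over the 3 days (exact permutation of paired differences, p = 1; smallest possible p = 0.25), and by 0.210 without the day 7 pair. When every cell was thinned to 1000 UMIs, the shares of all cells were 0.558% to 0.870% in sham and 4.86% and 3.85% at day 7. Among Ptprc-positive cells, the thinned difference between grafts and sham was -0.602 percentage points (exact permutation p = 0.690).

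The ratio of NK cells to CD3-positive cytotoxic lymphocytes changed over the days. There were 192, 557 and 574 NK cells per 100 CD3-positive cytotoxic cells in sham, from 13, 14 and 23 of the latter. At day 1 the ratio was 517 in transplant and 473 in raised flow. It was 57.7 and 20.5 at day 3, and 66.0 and 42.3 at day 7, when 2506 and 2393 CD3-positive cytotoxic cells were found. NK cells were therefore the more numerous kind in the sham and day 1 samples and the less numerous kind in the day 3 and day 7 samples, but the day 7 libraries differed. The ratio was 50.1, 189 and 76.6 in the 3 libraries of transplant at day 7 and 13.4, 136 and 121 in those of raised flow, so that NK cells were the more numerous kind in 3 of the 6. Without raised flow day 7 library 1, which held 1786 of the CD3-positive cytotoxic cells, the raised-flow ratio at day 7 was 127, on the other side of equal numbers. This setting was chosen after seeing the data. The CD3-positive cells had higher median UMIs (2452 to 10883.5) than NK cells in 8 of the 9 samples, and the part of depth in this ratio was not tested.

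NK cells were then grouped by their own expression into 12 clusters, which are described by their leading genes only. In the largest (762 cells), the leading genes by fold were Igh-6, AABR07060872.1 and AABR07034739.1, of whose UMIs in all NK cells 90.7%, 74.8% and 52.4% lay in 1 single cell. Ly49s6, Ly49i4, Ccl3, Klra1 and Ccl4 also led it, and 393 of its cells came from transplant at day 7 library 1. A cluster of 638 cells was led by LOC690020, by the interferon-stimulated genes Isg15, Mx1 and Oas1f, by the mast cell proteases Cma1, Mcpt1l1 and Mcpt1l4 and by the MHC class II gene RT1-Da. The mast cell marker Cpa3 was at 19.6 CPM in it and at 0 to 1.82 CPM in the other clusters, while Ms4a2, another mast cell marker, had no UMI. In this cluster, 613 cells (96.1%) came from transplant at day 7 library 3, so that it may be that library rather than a kind of cell. A cluster of 626 cells was led by the hemoglobin gene Hbe1, by Jag1 and by Rassf3, with Pde4d and Cxcr4 further down. A cluster of 476 cells was led by Focad, Gzmbl3, Gzma, Cd24, Rln1, the T cell marker Cd8a and Prf1. Faslg, Klrg1 and Gzmk followed in it, and Gzma and Prf1 are genes of the rule. Cycling cells with Top2a, Mki67 and Birc5 numbered 333 and had a median of 6994 UMIs. A cluster of 218 cells from all 9 samples and 16 libraries was led by Art2b, Il4, Ncr3, Sema6d, Ahr, Ccl1, Cd7, Xcl1 and Itgae. Its cells held Ncr1 at 104 CPM and Tyrobp at 5063 CPM, and Il4 at 326 CPM. The remaining cells formed 6 clusters led by pancreatic enzymes (120 cells, 77 of them from sham 3), macrophage genes (107), Slc27a2, Rnf213 and Prkch in shallow cells (66), neutrophil genes (53), fibroblast genes (41) and endothelial genes (32). The 66 shallow cells, which passed the rule with no UMI of Cd3d, Cd3e or Cd3g, held Cd8b at 118 CPM, Themis at 81.8 CPM, Cd28 at 72.7 CPM and Bcl11b at 90.9 CPM, beside Tyrobp at 2662 CPM and Ncr1 at 54.5 CPM. Cd8b was at 0 to 4 CPM and Themis at 0 to 1.84 CPM in the other 11 clusters, and this cluster is left unnamed. Of the macrophage, neutrophil, fibroblast and endothelial clusters, 53, 50, 41 and 18 cells held UMIs of other types as defined above.

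Several genes that led the Il4 cluster were called lower at day 7 than at day 1 after LT (Il4, Art2b, Ahr, Ncr3, Sema6d and Asb2), while others (Xcl1, Itgae, Cd7 and Ccl1) did not pass. Il4 (ENSRNOG00000007624), the cytokine interleukin 4, was at 62.7, 67.4 and 88.1 CPM in sham 1, 2 and 3. It was at 96.8, 58.1 and 2.18 CPM in transplant and at 67.3, 51.5 and 4.71 CPM in raised flow at days 1, 3 and 7. Both day 7 samples were below the other 7 samples. Day 7 and day 1 differed by a log2 change of -4.55 ± 0.42 (SE, adjusted p = 2.24e-06, edgeR quasi-likelihood test on 6 grafts with arm as block). By library, Il4 was at 0 to 8.77 CPM in the 6 libraries of day 7 and at 11.9 to 130 CPM in the 6 of day 1. Free RNA could give only 0.552% of its UMIs. Of the 29 called genes that were run under the alternatives, Il4 alone passed the threshold under all 23. The NK cells of the 2 days lay in different clusters. The Il4 cluster held 33 of 119 and 83 of 298 NK cells in transplant and raised flow at day 1 and 23 of 1655 and 19 of 1012 at day 7, and 16, 31, 8 and 9 cells of these samples had a UMI of Il4. Within that cluster Il4 was at 357 CPM over 116 cells of day 1 and at 180 CPM over 42 cells of day 7, Art2b at 993 and 433 CPM, Ahr at 302 and 216 CPM, Ncr3 at 206 and 240 CPM, and Sema6d at 163 and 198 CPM. Rora was at 294 and 114 CPM there. Outside the cluster, Il4 was at 11.3 and 0.443 CPM, Art2b at 51.1 and 9.57 CPM, Ahr at 37.8 and 9.57 CPM, Ncr3 at 10.4 and 6.55 CPM, Sema6d at 7.57 and 2.30 CPM, and Rora at 157 and 60.8 CPM. The share of cells in the cluster was thus smaller at day 7, the levels of all 6 genes outside it were lower, and inside it those of Il4, Art2b, Ahr and Rora were lower and those of Ncr3 and Sema6d were not. Outside the cluster, the day 1 levels rest on 12 UMIs of Il4, 11 of Ncr3 and 8 of Sema6d, and the day 7 level of Il4 on 5. The cluster was taken as the one with the highest Il4 level, so this split is tied to the values it describes. Both arms were pooled in it. The parts of cell share and level per cell in the differences were not tested.

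Art2b (ENSRNOG00000019687), an ADP-ribosyltransferase on the surface of rat lymphocytes, was at 627, 171 and 120 CPM in sham. It was at 406, 147 and 15.9 CPM in transplant and at 156, 81.0 and 18.2 CPM in raised flow at days 1, 3 and 7. The fall between days 1 and 7 was -3.88 ± 0.37 (adjusted p = 8.22e-05), and all earlier and sham samples were above both day 7 samples. Ahr (ENSRNOG00000004342), a ligand-activated transcription factor of tissue-resident lymphocytes, was at 83.3, 99.0 and 10.2 CPM in transplant and 86.7, 60.7 and 17.8 CPM in raised flow, beside 136, 31.4 and 96.1 CPM in sham (-2.62 ± 0.35, adjusted p = 0.00025). Ncr3 (ENSRNOG00000000854), the activating receptor NKp30, was at 67.2, 71.7 and 8.87 CPM in transplant and 38.8, 58.9 and 13.0 CPM in raised flow (-2.20 ± 0.39, adjusted p = 0.00422). The sham samples had 282, 85.4 and 58.8 CPM. Sema6d, a semaphorin, fell by 2.61 ± 0.45 on the log2 scale (adjusted p = 0.00312), from 32.3 and 37.7 CPM at day 1 to 3.01 and 8.77 CPM at day 7. Rora, a nuclear receptor of innate lymphocytes, changed less, from 124 and 198 to 56.2 and 78.9 CPM (-1.24 ± 0.25, adjusted p = 0.0161). Also lower at day 7 were Tnfrsf25, the receptor of the cytokine TL1A, and Rgs12, a regulator of G protein signalling, with log2 changes of -2.30 and -2.43. Asb2 (-1.80 ± 0.32), Gpr183, an oxysterol receptor that guides lymphocyte migration (-1.53 ± 0.27), and Tiparp, an Ahr target (-1.48 ± 0.26), had adjusted p = 0.00422 and were chosen for mention after their values were seen.

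In individual cells, these genes were found together. The 98 NK cells with a UMI of Il4 held Art2b at 711 CPM against 35.2 CPM in the other 3374 NK cells, Ncr3 at 229 against 16.2 CPM, Sema6d at 187 against 7.78 CPM and Ahr at 194 against 22.7 CPM. Cd7 was at 704 against 161 CPM and the chemokine Ccl1 at 459 against 16.1 CPM. Rora was at 233 against 76.5 CPM, and Gata3, a factor of type 2 innate lymphocytes and T helper cells, at 71.1 against 37.7 CPM. Klrg1, a receptor of mature NK cells, had no UMI in these 98 cells and was at 117 CPM in the others. Gzma (3931 against 4049 CPM), Tyrobp (4496 against 4060 CPM), Ncr1 (126 against 79.0 CPM) and Tbx21 (210 against 151 CPM) were present in both. The NK marker Eomes was at 3.23 against 10.4 CPM and Itgae at 90.4 against 19.0 CPM. Il13 was at 3.23 against 0.143 CPM, and Il5 had no UMI in either set. The levels of Eomes and Il13 rest on few UMIs. The median depth was 2295.5 UMIs in cells with Il4 and 3250 in the others. Of the cells with Il4, 17 were from day 7, against 2650 of the others, so that the sets also differ in day. Within day 1, Art2b was at 889 CPM in 47 cells with Il4 and 150 CPM in 370 without, Ncr3 at 212 and 27.5 CPM, Sema6d at 130 and 25.8 CPM, Ahr at 150 and 80.8 CPM and Klrg1 at 0 and 58.5 CPM. Within day 7, Art2b was at 451 CPM in 17 cells and 13.3 CPM in 2650, Ncr3 at 193 and 8.95 CPM, Sema6d at 258 and 3.77 CPM, Ahr at 161 and 11.8 CPM and Klrg1 at 0 and 133 CPM. The sets thus differed in the same direction within both days. They were chosen after the values were seen and carry no test.

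Other genes were higher at day 7. Lag3 (ENSRNOG00000021334), an inhibitory receptor, was at 118, 85.4 and 523 CPM in transplant and 58.1, 140 and 301 CPM in raised flow at days 1, 3 and 7, and at 10.5, 40.4 and 24.0 CPM in sham (2.26 ± 0.36, adjusted p = 0.00815). Cd27 (ENSRNOG00000027466), a costimulatory receptor of immature NK cells, was at 43.0, 147 and 254 CPM in transplant and 46.9, 105 and 159 CPM in raised flow, beside 73.2, 27.0 and 26.7 CPM in sham (2.10 ± 0.29, adjusted p = 0.000232). Both rose from each day to the next in raised flow, whereas Lag3 in transplant was not higher at day 3 than at day 1. Both were also higher in CD3-positive cytotoxic lymphocytes than in NK cells, Cd27 at 215 against 171 CPM over all cells. In transplant and raised flow, those lymphocytes numbered 23 and 63 at day 1 and 2506 and 2393 at day 7. Their part in the rises was not tested. Tnfrsf9 (4-1BB), induced on activated NK cells, was at 37.6 and 96.9 CPM at day 1 and 205 and 266 CPM at day 7 (1.88 ± 0.30, adjusted p = 0.00131). The sham samples ranged from 10.5 to 147 CPM for this gene. Tigit, an inhibitory receptor for nectin-like ligands, had 1 UMI among 1309268 at day 1 and 180 among 11457139 at day 7, a ratio of 20.6 with a counting interval of 3.65 to 817 (adjusted p = 0.019), and no UMI in sham. Rln1, which encodes a relaxin, went from 0 and 7.14 CPM to 57.4 and 80.2 CPM (3.91 ± 0.52, adjusted p = 0.000172).

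**Figure D3:**
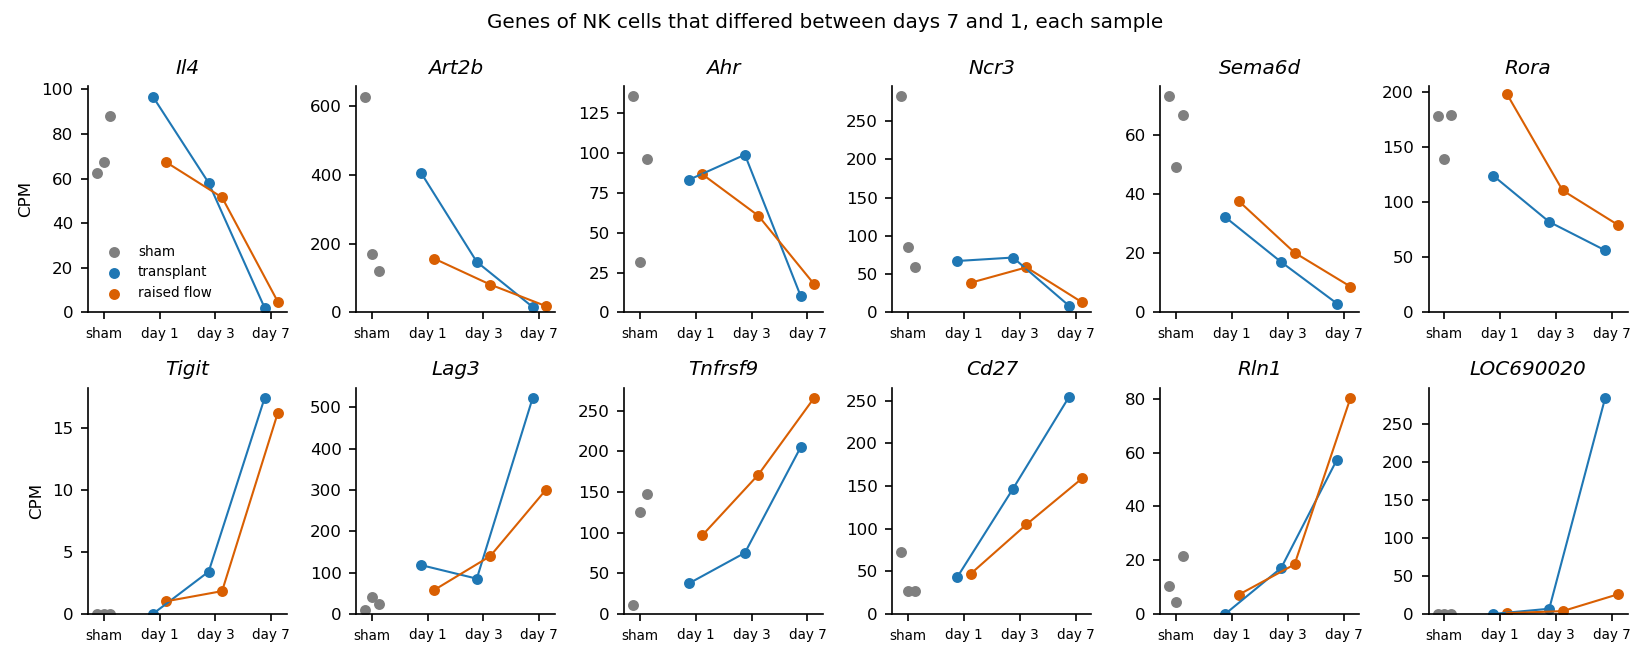
CPM of 12 genes in the summed NK cells of each sample, with the 3 sham samples in gray and days 1, 3 and 7 joined by lines for transplant (blue) and raised flow (orange), each panel with its own linear axis from 0. Il4, Art2b, Ahr, Ncr3, Sema6d and Rora are lower in both day 7 samples than in both day 1 samples, and the 6 genes of the lower row are higher, LOC690020 at 284 CPM in transplant and 26.1 CPM in raised flow.

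Many further day 7 differences went along with free RNA, with single libraries or with single cells. LOC690020 had 1 UMI at day 1 and 1821 at day 7 (ratio 208, counting interval 37.3 to 8224), but its day 7 libraries ranged from 0 to 310 CPM, with 222 and 310 CPM in transplant libraries 1 and 3 and 106 CPM in raised flow library 1. It was no longer called without raised flow library 1. Among the day 7 libraries, Trh was at 109 CPM in transplant library 1, at 0.739 CPM in raised flow library 2 and at 0 in the other 4, and it was at 13.9 CPM in sham 2. Of its 251 UMIs, 217 lay in 1 cell of transplant library 1. Rasal1, a Ras regulator, was at least 4.91-fold higher at day 7 by the floor of 3 UMIs set for the summed day 1 cells, which had none. Unlike Trh, its 133 UMIs were spread over 115 NK cells, with 63 UMIs in raised flow day 7 library 3. Igh-6, the immunoglobulin mu heavy chain of B cells, was at 936 CPM in raised flow library 2 and 30.8 CPM or less in the 5 other day 7 libraries. All 1266 Igh-6 UMIs of that library lay in 1 cell, and all other NK cells of the series together held 130. The same cell held 3547 of the 3556 UMIs of AABR07060872.1 and all 132 of AABR07034739.1 in that library. The raised-flow day 7 levels of these 3 genes thus rest mainly on it. In transplant, AABR07060872.1 was at 2.69 CPM at day 1 and 140 CPM at day 7. AABR07034739.1 was at 0 and 14.1 CPM there, and Igh-6 at 0 and 16.7 CPM. Free RNA could give all UMIs of Reg3g, Gpx2 and Tff3 (made by epithelium and lower at day 7, with log2 changes of -4.14, -2.65 and -2.48), 85.2% of those of the MHC class II gene RT1-Db1 (3.00 ± 0.37) and 71.9% of those of Fcgr3a (CD16; 2.62 ± 0.41). With the profile of empty barcodes subtracted, RT1-Db1 and Fcgr3a were no longer called.

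Of 8043 genes tested between days 7 and 1, 59 (0.734%) were called, 34 higher (0.423%) and 25 lower (0.311%). The test rests on 2 samples per day and 2 residual degrees of freedom, and p-values measure only the spread between these samples. The count was 9 without either day 3 sample, 216 and 172 without the day 1 or day 7 sample of transplant, 85 and 110 without those of raised flow, and 124 without cells that hold UMIs of other types, 54 of them shared with the 59. Of inhibitory and other NK receptors, 2 of 17 were called higher and none lower (Lag3 and Tigit), and the list had a median of 1.18. Day 7 held most of the UMIs, so the filter on mean UMIs kept genes found at day 7 more readily than genes found at day 1. Klrh1 (3.50 ± 0.77, adjusted p = 0.0811) and Klra1 (1.95 ± 0.48, adjusted p = 0.0914), Ly49-type and related receptors, were not called. Of activating receptors, 2 of 23 were higher (Fcgr3a and Tnfrsf9) and 1 lower (Ncr3). Transcription factors had none of 25 higher and 2 lower (Ahr and Rora). Among circulation and residence genes only Cd27 of 21 was called. The residence integrin Itgae (CD103) was at 56.5 and 32.6 CPM at day 1 and 13.4 and 16.7 CPM at day 7 (-1.48 ± 0.40, adjusted p = 0.12), and Cxcr6 did not pass either (-2.10 ± 0.60, adjusted p = 0.155).

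Il4 was the only called gene of 15 chemokine and cytokine genes. Ifng, the main NK cytokine, was at 102, 41.0 and 31.1 CPM in transplant and 27.5, 16.6 and 19.0 CPM in raised flow at days 1, 3 and 7, beside 24.0 to 49.4 CPM in sham, and Xcl1, the attractant of dendritic cells, had -1.02 ± 0.30 (adjusted p = 0.173). In raised flow day 7 library 1, 1 cell held 814 of the 1223 UMIs of Xcl1, and its part in this difference was not tested. No granule or death ligand gene of 15 was called. Gzmbl2, a granzyme B-like protease, was at 933 and 375 CPM at day 1 and 1681 and 1362 CPM at day 7 (1.29 ± 0.36, adjusted p = 0.173). Of 32 interferon-stimulated genes, Gbp2 (1.53 ± 0.29, adjusted p = 0.00815) and Gbp5 (1.37 ± 0.28, adjusted p = 0.018), interferon-inducible GTPases, were higher, and the list median was 0.72. Isg15 differed widely between the day 7 libraries, with 84.8, 826 and 1103 CPM in transplant and 47.8, 319 and 260 CPM in raised flow. Of 16 MHC class I genes, the peptide transporter Tap1 was higher (1.29 ± 0.29, adjusted p = 0.0361), and the list median was 0.59. Of 29 immediate early and dissociation genes, the heat shock gene Hspa1b was lower (-1.41 ± 0.29, adjusted p = 0.019), from 124 and 325 to 68.0 and 85.1 CPM, and free RNA could give 42.6% of its UMIs. None of 29 cell cycle, 22 cytokine receptor, 17 Crem and cAMP-responsive or 21 glycolysis and hypoxia genes was called. Their medians were 0.38, -0.09, 0.01 and -0.19, beside -0.00 over all genes tested.

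**Figure D4:**
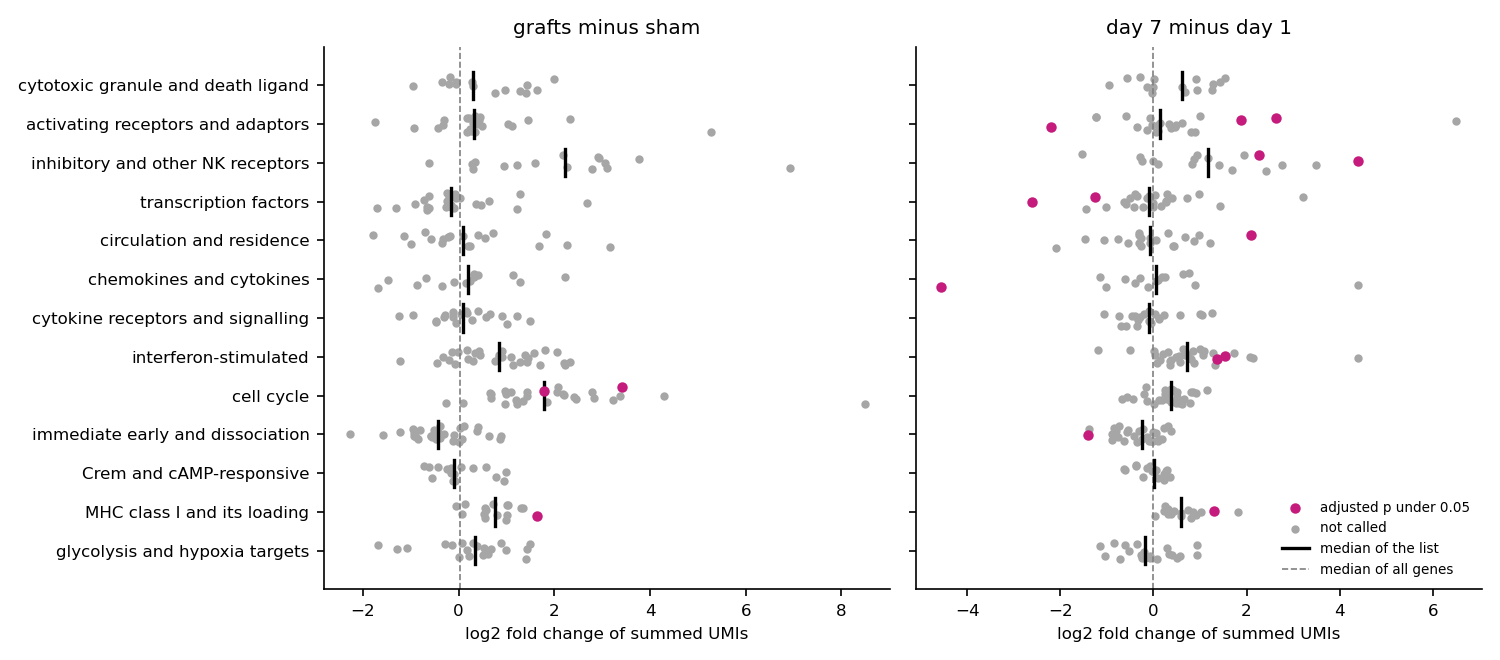
Log2 fold changes of the tested members of 13 gene lists in NK cells, for grafts minus sham (left) and day 7 minus day 1 (right), with members called at an adjusted p below 0.05 in magenta, other members in gray, list medians as black bars and the median of all genes as a dashed line. On the left the cell cycle list has a median of 1.78 with 2 of 29 members called, and on the right Il4 lies lowest at -4.55.

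Grafts were compared with sham to ask which NK genes differed after LT. Called higher were 2 of the 29 listed cell cycle genes (Cdk1 and Hmgb2) and, outside that list, Cenpw, Cdkn3 and H1f5, among others. The cells of the groups lay in different clusters. The cluster of pancreatic enzymes held 2, 33 and 77 of the 25, 78 and 132 NK cells of sham 1, 2 and 3 and 0 to 4 cells of any graft. The cycling cluster held 0, 1 and 1 of these sham cells. At days 1, 3 and 7 it held 6 of 119, 8 of 45 and 94 of 1655 NK cells in transplant. In raised flow it held 11 of 298, 35 of 108 and 177 of 1012. Cdk1, the kinase that drives entry into mitosis, was at 0, 4.49 and 5.34 CPM in sham, 45.7, 58.1 and 40.3 CPM in transplant and 54.1, 58.9 and 29.3 CPM in raised flow at days 1, 3 and 7. All 6 grafts were above all 3 sham samples. Sham held 3 UMIs of Cdk1 among 663831, so that the pooled ratio of 8.05 has a counting interval of 2.74 to 39.2 (log2 change 3.41 ± 0.59, adjusted p = 0.0305). Cenpw, a centromere protein (3.11 ± 0.60, adjusted p = 0.047), Cdkn3, a cell cycle phosphatase (2.86 ± 0.50, adjusted p = 0.0305), the linker histone H1f5 (2.65 ± 0.48, adjusted p = 0.0305) and Hmgb2, a chromatin protein of dividing cells (1.78 ± 0.32, adjusted p = 0.041), were also higher. Magohb, a subunit of the exon junction complex, was at 83.6, 76.4 and 58.8 CPM in sham and 181 to 478 CPM in grafts (1.98 ± 0.33, adjusted p = 0.0284). Psmb9, a subunit of the immunoproteasome, was at 136, 171 and 155 CPM in sham and 247 to 713 CPM in grafts (1.63 ± 0.31, adjusted p = 0.041).

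Lower in grafts were the pancreatic proteases Ctrb1 (52.3, 279 and 403 CPM in sham and at most 5.10 CPM in grafts) and Ctrc, and LOC103689940. Free RNA could give 95.8% to 100% of their UMIs. The transcription factor Peg3 was also lower (-3.95 ± 0.59, adjusted p = 0.0164), at 10.5, 53.9 and 82.8 CPM in sham and at most 6.53 CPM in grafts, and free RNA could give 28.7% of its UMIs. Peg3 was at 149 CPM in the fibroblast-gene cluster and at 0 to 12 CPM in the other 11, and the fibroblast markers summed to 58.5, 7182 and 12959 CPM in sham 1, 2 and 3. Their part in its difference was not tested. In all, 12 of 7293 genes (0.165%) were called, 11 of them with no overlap between groups, as for 9.9% of all genes tested. The count was 2 without sham 2, 1 without sham 3, 63 without sham 1, 1 without transplant at day 7, 19 without transplant at day 1 and 183 without raised flow at day 1. It was 126 with day as a further term and 40 without cells that hold UMIs of other types, and no called gene named here passed under every alternative.

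Of the 29 cell cycle genes tested, 2 were called higher (Cdk1 and Hmgb2), and 21 had an unadjusted p below 0.05, all higher, beside 1014 of all 7293 genes (13.9%) in either direction. Their median was 1.78, beside 0.03 over all genes. Aurkb (2.78 ± 0.59) and Cenpf (3.23 ± 0.69) had an adjusted p of 0.0769. Inhibitory and other NK receptors had a median of 2.23, or 1.89 with genes that had no UMI in sham at their lower bound, and none of 16 was called. Of this list, 25 genes were in the files, and the filter on mean UMIs kept 16. The day 7 grafts held most of the UMIs, so a gene low there could go untested although present in sham. The medians and the shares without overlap carry this limit. Klra1 was at 0 to 10.5 CPM in sham and 13.4 to 80.5 CPM in grafts (adjusted p = 0.236), Ly49s4 at 0 to 5.34 and 7.36 to 43.7 CPM (adjusted p = 0.186), and Klrg1 at 16 to 31.4 and 39.8 to 195 CPM (adjusted p = 0.247). The sham and graft values of these 3 receptors did not overlap, nor did those of 2 others of the 16, all higher in grafts, beside 6.88% of all genes tested that were higher without overlap. The activating receptor Klrc2 was at 40.4 to 94.1 CPM in sham and 95.9 to 215 CPM in grafts (1.45 ± 0.34, adjusted p = 0.0873). Gzmbl2 (1.99 ± 0.43, adjusted p = 0.0929) and Serpinb9, which protects killer cells from their own granzyme (1.63 ± 0.40, adjusted p = 0.0929), were not called, nor was any other of 15 granule genes. Gata3 was at 115, 108 and 64.1 CPM in sham and 20.5 to 47.9 CPM in grafts (-1.31 ± 0.31, adjusted p = 0.0929), and Itgae at 66.8 to 167 CPM and 13.4 to 56.5 CPM (-1.80 ± 0.47, adjusted p = 0.139). Of 16 MHC class I genes, Psmb9 was called, and Psmb8 was at 280 to 324 CPM in sham and 369 to 975 CPM in grafts (1.03 ± 0.24, adjusted p = 0.0836). Interferon-stimulated genes had a median of 0.85 with none of 31 called, and Gbp5 had 1.80 ± 0.46 (adjusted p = 0.124). Immediate early and dissociation genes had a median of -0.42 with none of 29 called, and Dusp1 was at 680 to 1042 CPM in sham and 403 to 826 CPM in grafts. The hypoxia target Vegfa did not pass (-1.69 ± 0.38, adjusted p = 0.0812), and free RNA could give 49.2% of its UMIs.

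For transplant alone against sham, which shares the sham samples with the comparison above, none of 7293 genes (0%) was called by edgeR, while 956 had an unadjusted p below 0.05 and DESeq2 called 68. The smallest adjusted p was 0.0656, shared by Magohb (2.20 ± 0.35), H1f5, Cdk1, Ctrb1 and Ctrc. The count was 64 without sham 1, 8, 7 and 0 without transplant at days 1, 3 and 7, and 55, 16 and 5 without raised flow at days 1, 3 and 7, which share the estimate of the spread. The cell cycle list had a median of 1.82 with 21 of 29 genes at an unadjusted p below 0.05, beside 13.1% of all genes.

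Raised flow was compared with transplant within days to ask whether elevated arterial flow went along with different NK expression. Of 8043 genes, 8 (0.0995%) were called, and for 4 of them the direction was the same at each day, as it was for 26.6% of all genes tested. App, the amyloid precursor protein, was at 156, 73.6 and 86.4 CPM in raised flow and 56.5, 27.3 and 38.5 CPM in transplant at days 1, 3 and 7 (1.31 ± 0.24, adjusted p = 0.0199). The sham samples ranged from 10.5 to 417 CPM, and free RNA could give 22.8% of its UMIs. App was at 823 CPM in the fibroblast-gene cluster, 285 CPM in the endothelial cluster and 6.97 to 83.7 CPM in the others, and the fibroblast markers summed to 4233, 216 and 586 CPM in raised flow and 15.7, 107 and 785 CPM in transplant at days 1, 3 and 7. Without cells that hold UMIs of other types, the App difference was 1.24 (adjusted p = 0.0382). It was not called without transplant day 7 library 3 (0.99, adjusted p = 0.188) or raised flow day 7 library 2 (1.23, adjusted p = 0.0914). Lower in raised flow were 3 MHC class II genes, which antigen-presenting cells express. RT1-Da was at 60.2, 58.9 and 493 CPM against 204, 167 and 1417 CPM (-1.60 ± 0.25, adjusted p = 0.00394), and RT1-Ba and RT1-Db1 had -1.59 and -1.75. Free RNA could give 100%, 74.9% and 85.2% of their UMIs, and none of the 3 was called with the profile of empty barcodes subtracted. Transplant day 7 library 3 held 6848 of the 11168 RT1-Da UMIs in all NK cells, 1569 of 3056 for RT1-Ba and 5239 of 9436 for RT1-Db1. It held 938 of the 3472 NK cells. The other 4 called genes also had their highest levels in few day 7 libraries. Igh-6 (4.06 ± 0.41, adjusted p = 3.77e-05) and AABR07060872.1 (2.57 ± 0.35, adjusted p = 0.00105) turned in direction, to -0.94 and -0.18, without raised flow library 2 of day 7, where 1 cell held nearly all of their UMIs. LOC690020, with 222 and 310 CPM in transplant day 7 libraries 1 and 3, had -3.16 ± 0.43 (adjusted p = 0.00394). Trh had 1 UMI in raised flow and 247 in transplant, 217 of these in 1 cell of day 7 library 1 in the fibroblast-gene cluster.

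The comparison had 2 residual degrees of freedom, and its count was 0 without either day 3 sample, 15 and 33 without the day 1 sample of transplant or raised flow, 122 and 125 without those of day 7, 16 without transplant day 7 library 1, 5 without raised flow day 7 library 3 and 0 without day as block (168 genes at an unadjusted p below 0.05). No gene of the 13 lists was called. Interferon-stimulated genes had a median of -0.82 in 32 tested, 8 of them lower and none higher at an unadjusted p below 0.05, a level that 309 of all 8043 genes (3.84%) passed in either direction. The cluster led by Isg15 and Mx1, of which 96.1% came from transplant day 7 library 3, lies on the transplant side of this comparison, and its part in the list was not tested. Ifit3 was at 6.12, 1.84 and 29.9 CPM in raised flow and 45.7, 13.7 and 71.8 CPM in transplant (-1.80 ± 0.38, adjusted p = 0.108), and free RNA could give 35.3% of its UMIs. Ifng was lower at each day in raised flow (-1.23 ± 0.32, adjusted p = 0.318), and so was the receptor Klri2 (-1.33 ± 0.35, adjusted p = 0.322). The medians were -0.22 for granule genes, -0.17 for activating receptors, -0.07 for the cell cycle and 0.21 for Crem and cAMP-responsive genes, beside 0.02 over all genes. Il4 was at 67.3, 51.5 and 4.71 CPM in raised flow and 96.8, 58.1 and 2.18 CPM in transplant, so that its day 7 level was low in both arms.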

How the data were processed

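Single-cell suspensions of digested rat bile duct were sequenced by 10x Genomics 3′ chemistry after red cell lysis and dead cell removal. For each library analysed, the authors deposited a matrix of unnormalized UMI counts (genes by barcodes), made with Cell Ranger (5.0.1 in the submitters' processing notes, 4 in the matrix headers, with Seurat 3.2.0 also named). The genome build is not given in the sources used here. Of the libraries, 1 (raised flow day 3 library 1) had no matrix among the files used here and was not analysed.

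Groups followed the sample titles. The NK cells, gene lists and named genes were chosen with earlier results of these data known. Named were up to 4 members of each list by smallest p, the 10 largest called rises and falls without overlap, or, with no call, the 5 smallest p. For raised flow against transplant and NK against CD3-positive cells, the same direction in every pair took the place of no overlap. The few genes named outside this rule were chosen after their values were seen, as stated there. Counts were summed over the NK cells of each sample with at least 20 of them, and genes with a mean of at least 10 UMIs were tested by edgeR 4.0.16 (R 4.3.3; robust quasi-likelihood test, TMM scaling, Benjamini-Hochberg adjustment over all genes tested, called below 0.05). Grafts and transplant were compared with sham in 1 fit of 9 samples, raised flow with transplant and day 7 with day 1 in 1 fit of 6 grafts with day and arm, and NK with CD3-positive cells with sample as block. Levels per sample are CPM with TMM scaling over the 9 samples. Levels by library, marker, cluster or kind of cell are CPM of the plain sum. Shares were compared by two-sided exact permutation tests (scipy 1.17.1). Whether samples are separate rats is not stated, so p-values measure only the spread between samples, which may be technical. Intervals and the floor of 3 UMIs cover counting error only.

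Free RNA was estimated from barcodes with at most 100 UMIs. Doublets were kept in the main results. Cells were scored with Scrublet (scanpy 1.11.5), and the highest-scoring cells of each library were left out as an alternative. Clusters used 1500 variable genes, 15 components, 20 neighbors and Leiden resolution 0.4 (leidenalg 0.10.2). Alternatives were DESeq2 1.42.0, no TMM scaling, other filters, stricter rules for NK cells, subtraction of the empty-barcode profile, libraries as samples, other blocks and leaving out samples. Scripts were tested on simulated counts. No sequences were used.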

Additional observations from a re-analysis of the deposited data

Results flagged for a closer look

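For 15 of 71 results checked over the 6 grafts, a single sample stood farther from the rest than the Dixon criterion of 0.625 for 6 samples allows. Chance alone gives about 1 in 20 for 6 like samples. The grafts differ in day and arm, and most of these genes were named for differences between the same samples. The 15 of 71 can therefore not be set against that rate. In transplant at day 7, the outlying levels were 43.7 CPM of the Ly49 receptor Ly49s4 (next highest 18.8), 1178 CPM of RT1-Db1 (445), 1417 CPM of RT1-Da (493), 41.3 CPM of Trh (0.214), 284 CPM of LOC690020 (26.1), 15.9 CPM of the signalling receptor Slamf6 (3.42), 92.6 CPM of the nucleic acid sensor Zbp1 (43.0), 2762 CPM of the MHC class I gene RT1-CE10 (895) and 31.1 CPM of the transcription factor Irf4 (7.91). In raised flow at day 7 they were 277 CPM of Igh-6 (16.7) and 829 CPM of AABR07060872.1 (140). In transplant at day 1 they were 102 CPM of Ifng (41.0) and 406 CPM of Art2b (156). In raised flow at day 1 they were 826 CPM of Dusp1 (539) and 325 CPM of Hspa1b (144). In raised flow day 7 library 2, 1 cell held all 1266 UMIs of Igh-6 and 3547 of 3556 of AABR07060872.1, and in transplant day 7 library 1, 1 cell held 217 of the 247 UMIs of Trh. Free RNA could give all UMIs of RT1-Da, 85.2% of those of RT1-Db1, 42.6% of Hspa1b, 34.4% of Slamf6, 19.7% of Dusp1, 18.8% of Irf4, 12.8% of RT1-CE10 and 11% of Zbp1. For Art2b, Ifng, LOC690020 and Ly49s4, it could give 3.63%, 1.86%, 1.14% and 0.704%.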

How the results depend on the processing

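The counts of called genes moved by more than 1.5 times under many settings. Grafts against sham (12 genes) gave 76 with DESeq2, 434 without a filter on low counts, 48 with 3 of 5 markers required, 5 with the empty-barcode profile subtracted, 5 with each library as its own sample, 126 with day as a term and 1 to 183 with a sample left out. Transplant against sham (0 genes by edgeR, 956 at an unadjusted p below 0.05) gave 68 with DESeq2, 7 without TMM, 286 without a filter, 4 with filterByExpr, 20 with 3 of 5 markers, 2 without scored doublets, 5 with the profile subtracted, 5 by library, 82 with day as a term and 0 to 64 with a sample left out. Raised flow against transplant (8 genes) gave 2 with DESeq2, 38 without a filter, 5 with 3 of 5 markers, 4 without scored doublets, 21 with the profile subtracted, 0 by library, 0 without the day block (no replicate block, 168 at an unadjusted p below 0.05) and 0 to 125 with a sample left out. Day 7 against day 1 (59 genes) gave 164 without a filter, 36 by library, 23 without the arm block and 9 to 216 with a sample left out. NK against CD3-positive cells (1781 genes) gave 749 without the sample block and 1050 to 1933 with a sample left out. Without TMM the median over all genes at day 7 against day 1 shifted to -0.13. Alternatives chosen after seeing the data were leaving out cells that hold UMIs of other types, which gave 40, 28, 19 and 124 genes in the first 4 comparisons, and leaving out single day 7 libraries. In raised flow against transplant, the latter gave 16 without transplant library 1 and 5 without raised flow library 3, and turned Igh-6 to -0.94 and AABR07060872.1 to -0.18 without raised flow library 2. The cause of these changes was not tested, apart from fewer samples or more genes tested where the setting itself makes them.

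The difference in NK share between grafts and sham had the same sign under all alternatives run, from 0.410 to 1.27 percentage points of all cells and from -1.97 to -0.0997 of Ptprc-positive cells (-1.97 to -0.406 with a sample left out), with no p below the threshold. Raised flow against transplant ranged from -0.574 to 0.210 with a sample left out and turned to 0.210 without day 7 of either arm. Of 29 named calls between days 7 and 1, 1 (Il4) passed under every alternative and 25 were lost with some sample left out. None of the 11 named calls against sham and none of the 8 between graft groups passed under every alternative, while 50 of the 66 against CD3-positive cells did. Few NK cells limit the values of sham 1 and transplant at day 3, with 25 and 45 cells.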
